A study of Homo sapiens with 6 samples.

Results

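The 38 genes of the endoplasmic reticulum (ER) stress and ATF4 amino acid response were followed through RNA-seq of untreated cells and of cells exposed to cationic liposomes (CLs). They were taken by gene symbol from the 40205 symbols of the count table, and all 38 were found, the oxidase gene ERO1A under its older symbol ERO1L. All 38 had enough reads to be tested, among 15047 tested genes in all. The control group held 3 samples (Control-1 to Control-3) of untreated cells. The CLs-treated group held 3 samples (CLs-1 to CLs-3) that were exposed to CLs, lipid vesicles made with the positively charged lipid DOTAP, for 24 h at a labelled dose of 120 μM. The labels call the cells HepG2, an established human line derived from a liver cancer, and name no further genotype or agent.

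The comparison asked whether exposure to CLs moved the genes by which a cell answers unfolded protein in the ER or a shortage of amino acids. In the ER membrane, the sensors ERN1 (IRE1), EIF2AK3 (PERK) and ATF6 respond to unfolded protein. ERN1 splices the XBP1 mRNA, ATF6 is cut to release a transcription factor, and EIF2AK3 phosphorylates eIF2α, which lowers general translation and favours translation of ATF4. XBP1 and ATF6 drive chaperone and degradation genes, while ATF4, which other eIF2α kinases can also induce, drives genes of amino acid supply and stress signalling such as ASNS, TRIB3, CHAC1 and DDIT3 (CHOP).

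The total count per sample was between 11418527 and 13998946 reads on genes. Of 13 markers of hepatocytes and HepG2 cells, among them ALB, AFP, APOA1 and HNF4A, none had enough reads to be tested. Their counts summed to between 5 and 19 in a control sample, 130 in CLs-1 and 2 to 3 in the other CLs-treated samples, so the labelled cell type was not seen in its defining markers. The 5 epithelial markers summed to 36564 to 55767 counts in the controls and 20484 to 22687 in the CLs-treated samples, nearly all from the keratins KRT8 and KRT18, while KRT19, EPCAM and CDH1 had too few reads to be tested. The 8 fibroblast markers summed to 8406 to 12800 counts in the controls and 9219 to 13614 in the CLs-treated samples, and the 5 immune markers to 151 to 198 and 197 to 314. Outside CLs-1 the fibroblast sum came from COL3A1, COL1A1 and PDGFRB, with COL1A2, DCN, LUM, THY1 and GREM1 at 0 to 5 counts, and the immune sum came from CD68, with PTPRC, CD74, CD3E and LYZ at 0 to 2 counts. CLs-1 stood apart from the other libraries. There, 35 genes with 30 counts or more exceeded every other library more than 8 times in CPM and took 0.0325% of the reads together, and none of the 38 genes was among them. The 7 adrenal cortex markers summed to 539 counts in CLs-1 against 11 to 32 in the other libraries, and the 3 hemoglobin genes to 476 against 0 to 4. In CLs-1 the adrenal sum came from STAR (290), CYP11A1 (151), HSD11B1 (73) and HSD3B2 (24), with CYP17A1, CYP11B1 and CYP21A2 at 0 to 1 counts. In the other libraries it was nearly all CYP11A1, at 11 to 29 counts. The part of these differences in the results below was not tested, and values without CLs-1 are given where they bear on a count.

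Promoter sequences were read to see which of the genes carry the sites that XBP1, ATF6 and ATF4 are known to bind. RefSeq promoters, from 250 bases before to 50 bases after a transcription start on GRCh38.p14, were matched for 36 of the 38 genes, PDIA3 and DERL1 being the genes without a match. Both strands of every listed start were searched for the ER stress response element (ERSE, CCAAT and CCACG with 9 bases between them), its shorter form ERSE-II (ATTGG and CCACG with 1 base between them), the unfolded protein response element (UPRE, TGACGTGG) and the core of the C/EBP-ATF response element (CARE, TGATGNAA). An ERSE was found in 7 of 36 genes (19.4%), XBP1, HSPA5, HSP90B1, CRELD2, CALR, CANX and PDIA6, against 0.0916% of all 27305 genes with a promoter. ERSE-II was found in SDF2L1, HYOU1 and HERPUD1 (8.33%, against 0.0696% of all genes). UPRE was found in HYOU1 alone, where it overlaps an ERSE-II, against 0.927% of all genes. CARE was found in ASNS, CHAC1 and HERPUD1 (8.33%, against 4.46% of all genes). A match is a run of letters in this window and was not tested as a binding site. The 38 genes were listed as known genes of these pathways. A share above that of all genes was therefore built into the list and is not a result of these data. The windows below are shown because they belong to genes whose levels are described next. Each runs 5′ to 3′ in the direction of its gene, with the motif in capitals and 16 bases on each side, and all lie upstream of the annotated start.

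XBP1, ERSE on the gene's strand, chr22:28800587-28800637, minus strand: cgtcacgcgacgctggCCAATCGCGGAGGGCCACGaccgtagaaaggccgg

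HSPA5, ERSE on the gene's strand, chr9:125241375-125241425, minus strand: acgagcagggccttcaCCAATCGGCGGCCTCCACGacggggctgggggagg

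HSP90B1, ERSE on the gene's strand, chr12:103930200-103930250, plus strand: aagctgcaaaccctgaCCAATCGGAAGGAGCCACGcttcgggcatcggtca

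CALR, ERSE on the opposite strand, chr19:12938368-12938418, plus strand: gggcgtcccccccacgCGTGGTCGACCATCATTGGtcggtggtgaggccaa

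HYOU1, ERSE-II on the opposite strand, with the overlapping UPRE, chr11:119057364-119057406, minus strand: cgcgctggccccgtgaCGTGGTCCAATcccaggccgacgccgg

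HERPUD1, ERSE-II on the gene's strand, chr16:56932009-56932051, plus strand: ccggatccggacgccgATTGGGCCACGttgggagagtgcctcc

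HERPUD1, CARE on the opposite strand, chr16:56931950-56931989, plus strand: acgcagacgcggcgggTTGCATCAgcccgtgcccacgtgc

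ASNS, CARE on the gene's strand, chr7:97872453-97872492, minus strand: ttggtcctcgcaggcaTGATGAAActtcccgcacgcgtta

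CHAC1, CARE on the opposite strand, chr15:40953246-40953285, plus strand: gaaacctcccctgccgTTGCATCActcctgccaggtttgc

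None of the 38 genes was called higher or lower in the CLs-treated group. The calls followed the fold change criteria of the study, above 1.5 or below 0.67, with a Benjamini-Hochberg adjusted p-value under 0.05 from edgeR's quasi-likelihood test, by which 13 of all 15047 genes (0.0864%) were called. The study used another method, EBSeq, and reported more changed genes than were called here. TRIB3 was the 1 gene of 38 (2.63%) with an unadjusted p-value under 0.05, against 5.81% of all tested genes. DESeq2 called none of the 38 either, and had ASNS and TRIB3 at an unadjusted p-value under 0.05 (5.26%, against 3.1% of all genes in that fit). The log2 fold changes, CLs-treated over control, ran from -0.33 in ERN1 to 0.61 in TRIB3 with a median of 0.08, where the median of all tested genes was 0.01. They were above 0 in 25 of the 38 genes (65.8%) and in 52.1% of all tested genes. In bulk RNA, a smaller share of expressing cells and less RNA per cell cannot be told apart.

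These data bounded the change of most of the genes. The 95% interval of the fold change lay within 1.5-fold in either direction in 22 of the 38 genes and within 2-fold in 34. Of all 15047 tested genes, it lay within 1.5-fold in 7389 and within 2-fold in 12514, so such bounds were not particular to the 38. The intervals that reached past 2-fold were those of DDIT3, CHAC1, TRIB3 and ASNS. For 1 gene alone, the smallest p-value that an exact permutation test (two-sided) allows with 3 samples a group is p = 0.10. The paper calls the 6 samples independent, but neither it nor the labels say that the samples of a group were separate cultures. The p-values therefore measure the spread between these samples, which may be technical.

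**Figure D1:**
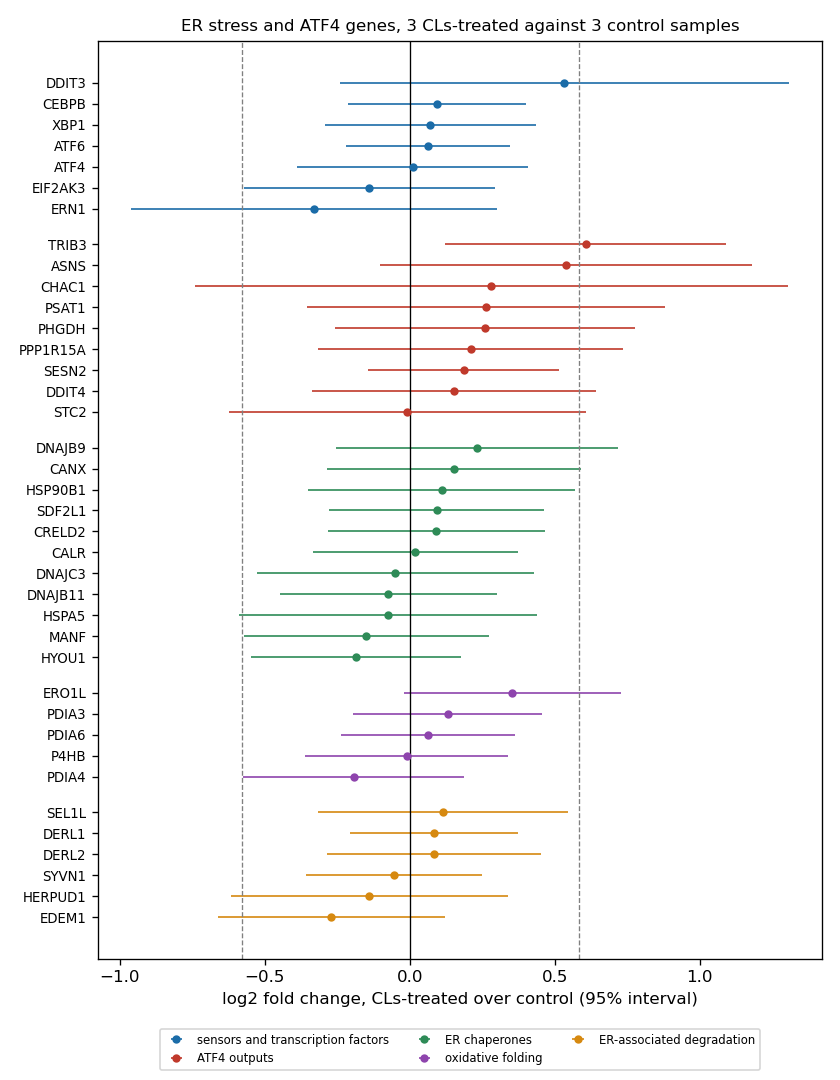
Log2 fold change of each of the 38 genes, CLs-treated over control (x axis), ordered within 5 role groups, with points for the edgeR estimate from 3 against 3 samples and bars for the 95% interval. Dashed lines mark folds of 1.5 and 0.67, and the interval of TRIB3 is the only one that does not cross 0.

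Of the 7 sensors and transcription factors, 5 had a log2 fold change above 0 and none had an unadjusted p-value under 0.05, with a median log2 fold change of 0.06. In the order of the sample numbers, kept throughout, ATF4 was at 539.0, 425.6 and 365.3 CPM in the controls and at 382.7, 541.7 and 415.8 CPM in the CLs-treated samples, where CPM is the count scaled to the library total after TMM adjustment. The groups overlapped fully, and the log2 fold change was 0.01 (standard error 0.18, interval -0.39 to 0.41). Since ATF4 is controlled mainly in translation, its mRNA level does not report its activity. XBP1 was at 107.9, 102.8 and 84.6 CPM in the controls and 123.9, 102.0 and 84.2 CPM in the CLs-treated samples, so that sample 3 was the lowest in both groups and the log2 fold change was 0.07 (standard error 0.17). Gene counts do not separate spliced from unspliced XBP1.

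DDIT3, the transcription factor CHOP that links lasting ER stress to cell death, spread more widely. Its level was 50.4, 36.4 and 17.4 CPM in the controls and 54.8, 66.6 and 29.4 CPM in the CLs-treated samples. By sample number each CLs-treated value was above its control, but CLs-3 lay below Control-1 and Control-2. The log2 fold change was 0.53 with a standard error of 0.35 (adjusted p = 0.958 by edgeR's quasi-likelihood test). It depended on single samples, with 0.21 without Control-3, 0.28 without CLs-2, 0.80 without CLs-3 and 0.90 without Control-1. DDIT3 shares exon bases with MARS, a tRNA synthetase gene on the other strand, and the strand setting of the counting is not given in the sources used here. MARS itself had a log2 fold change of 0.06. ERN1, a rare message at 3.36 ± 0.94 CPM in the controls and 2.68 ± 0.11 CPM in the CLs-treated group (SD, n = 3), had the lowest log2 fold change of the 38 genes at -0.33 (standard error 0.29). The remaining sensors and factors, EIF2AK3, ATF6 and CEBPB, a partner of ATF4 and DDIT3, had log2 fold changes from -0.14 to 0.09.

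The ATF4 outputs had the highest median of the 5 role groups, 0.26 on the log2 scale, and 8 of the 9 genes were above 0. TRIB3, a pseudokinase induced by ATF4 and DDIT3 that feeds back on ATF4, was at 80.0, 71.2 and 42.4 CPM in the controls and 110.0, 105.3 and 79.2 CPM in the CLs-treated samples. CLs-3 fell just below Control-1, so the groups overlapped by that sample alone, while each CLs-treated sample lay above the control of its own number. The log2 fold change of TRIB3 was 0.61 (standard error 0.22, interval 0.12 to 1.09), with an adjusted p-value of 0.654 by edgeR's quasi-likelihood test. Under the other settings and with fewer samples its log2 fold change stayed between 0.38, without Control-3, and 0.79, and it was not called in any of them.

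ASNS, the asparagine synthetase gene whose CARE is printed above, was at 97.8, 78.0 and 44.1 CPM in the controls and 130.0, 122.6 and 66.3 CPM in the CLs-treated samples. CLs-1 and CLs-2 lay above every control sample, and CLs-3 lay below Control-1 and Control-2 but above Control-3. Its log2 fold change was 0.54 (standard error 0.29), with an adjusted p-value of 0.914 by edgeR's quasi-likelihood test, and it was 0.28 without Control-3 and 0.80 without Control-1. CHAC1, which degrades glutathione, was at 9.64, 4.23 and 1.97 CPM in the controls and 7.55, 7.78 and 3.86 CPM in the CLs-treated samples. The control samples alone differed by more than the groups did, and the log2 fold change of 0.28 had a standard error of 0.47, going from -0.11 without Control-3 to 1.05 without Control-1.

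SESN2, a stress-induced inhibitor of mTORC1 signalling, had the narrowest spread of the ATF4 outputs. It was at 20.3, 18.7 and 19.1 CPM in the controls and 21.0, 23.2 and 22.0 CPM in the CLs-treated samples, so that every CLs-treated value lay above every control value. The gap between Control-1 and CLs-1 was small, and the log2 fold change was 0.19 with a standard error of 0.15 and an adjusted p-value of 0.993 by edgeR's quasi-likelihood test. PSAT1 and PHGDH, enzymes of serine synthesis, each had a log2 fold change of 0.26, PPP1R15A (GADD34), which guides dephosphorylation of eIF2α, 0.21, and DDIT4 (REDD1), another inhibitor of mTORC1, 0.15. Without CLs-1 that of PSAT1 was -0.0087 and that of PHGDH 0.28. STC2, a secreted glycoprotein, was the gene below 0 at -0.01.

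**Figure D2:**
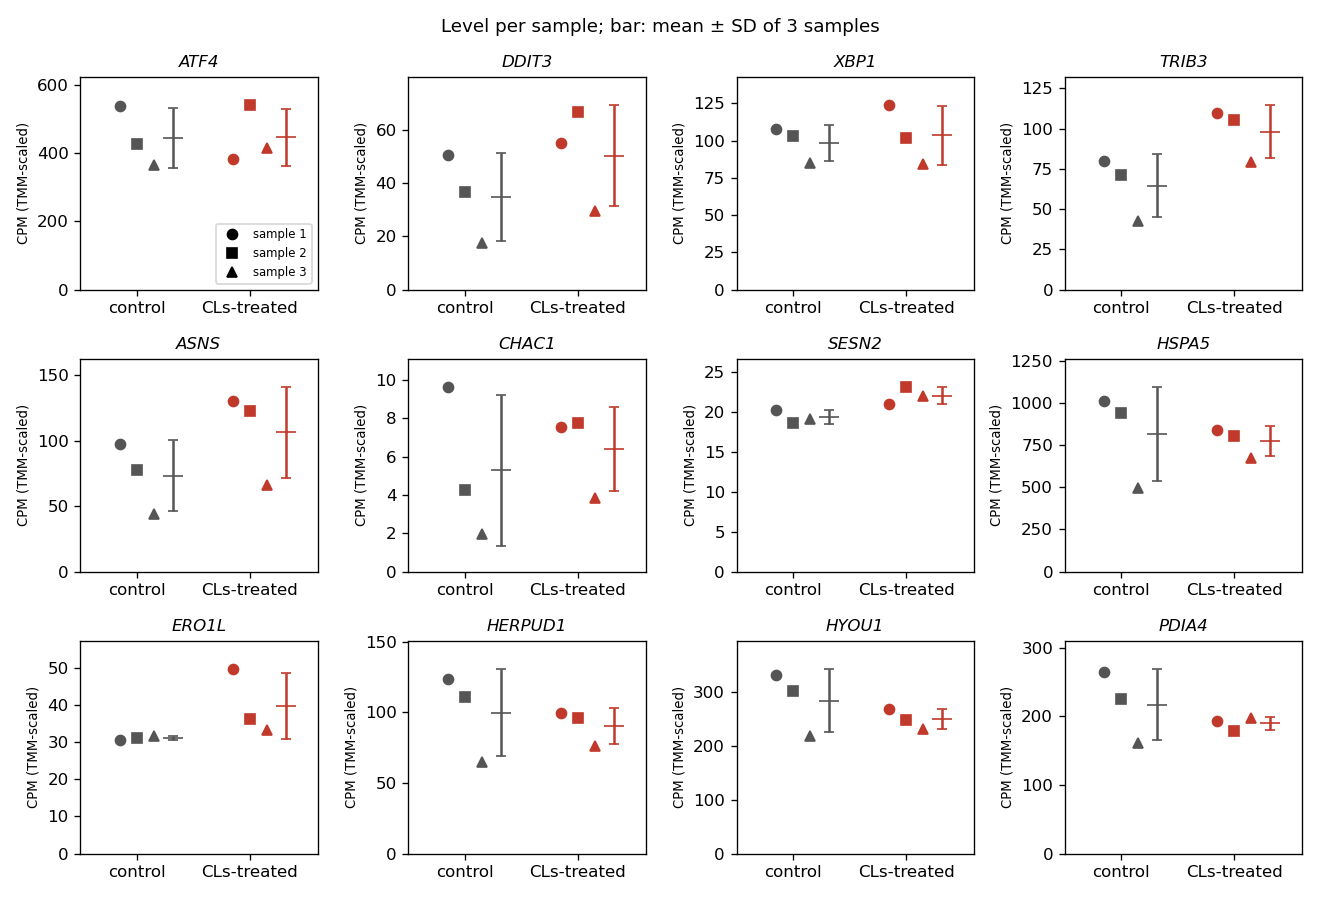
TMM-scaled CPM (y axes, from 0) of 12 genes in each control (grey) and CLs-treated (red) sample, with sample 1, 2 and 3 as circle, square and triangle and bars for mean ± SD of 3 samples. SESN2 and ERO1L separate the groups, and the triangle of sample 3 is the lowest control value in all panels but SESN2 and ERO1L.

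The 11 ER chaperones had a median log2 fold change of 0.02. Of them 6 were above 0, and the interval lay within 2-fold in all 11. HSPA5 (BiP), the main Hsp70 of the ER lumen and a holder of the ERSE above, was at 1014, 938.2 and 495.2 CPM in the controls and 841.2, 806.4 and 674.5 CPM in the CLs-treated samples. All 3 CLs-treated values lay between the values of Control-3 and Control-2, and the log2 fold change was -0.08 (standard error 0.23, interval -0.59 to 0.44). HYOU1, the nucleotide exchange factor of HSPA5, was the lowest of the chaperones at -0.19, and its J-domain partner DNAJB9 the highest at 0.23. The lectin chaperones CALR and CANX had log2 fold changes of 0.02 and 0.15, that of CANX being -0.08 without CLs-1, and HSP90B1 (GRP94) of 0.11. Per kilobase of exon in the GENCODE 29 annotation, CALR had the highest control level of the 38 genes at 919 CPM per kb, and HSPA5 was at 209 against 0.343 for ERN1.

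Of the genes of oxidative folding, ERO1L, the oxidase that recharges protein disulfide isomerases, separated the groups. It was at 30.4, 31.2 and 31.6 CPM in the controls and 49.6, 36.2 and 33.1 CPM in the CLs-treated samples. The controls were close together, CLs-1 was far above the other samples and CLs-3 only just above the controls. The log2 fold change was 0.35 (standard error 0.17), with an adjusted p-value of 0.869 by edgeR's quasi-likelihood test, and it was 0.16 without CLs-1. The disulfide isomerases PDIA3, PDIA6, P4HB and PDIA4 had log2 fold changes of 0.13, 0.06, -0.01 and -0.19. Reads of PDIA3 are uncertain, since the counts on its pseudogene PDIA3P reached 55.4% of those on PDIA3.

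SESN2 and ERO1L were the 2 genes whose groups did not overlap, both higher in the CLs-treated group. They were 5.26% of the 38 genes, and 5.34% of all tested genes separated in that direction. None of the 38 separated in the lower direction, where 6.18% of all tested genes did. Without CLs-1, 5 genes separated, SESN2 and ERO1L higher and EIF2AK3, DNAJC3 and SEL1L lower in the CLs-treated group, and the median log2 fold change was 0.04. That was 13.2% of the 38 genes, in a comparison of fewer samples in which 27.3% of all tested genes separated.

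The 6 genes of ER-associated degradation, by which misfolded protein is moved out of the ER and destroyed, had a median log2 fold change of 0.01, with 3 above and 3 below 0. EDEM1, a lectin that hands over misfolded glycoproteins, was the lowest at -0.27 (standard error 0.18), at 35.5 ± 5.81 CPM in the controls and 29.4 ± 4.92 CPM in the CLs-treated group (SD, n = 3). HERPUD1, a membrane component of the degradation complex whose window above holds an ERSE-II and a CARE, was at -0.14. SEL1L and SYVN1, the adaptor and the ubiquitin ligase of that complex, were at 0.12 and -0.05. The derlins DERL1 and DERL2, which form part of the exit channel, were both at 0.08.

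Samples of the same group also differed in these genes. The median log2 range over the 3 samples was 0.53 in the controls and 0.40 in the CLs-treated group, against 0.37 and 0.44 over all tested genes. Control-3 was the lowest control in 29 of the 38 genes (76.3%, against 40.1% of all tested genes), and CLs-3 was the lowest CLs-treated sample in 23 (60.5%, against 28.2%). Both held in 22 genes (57.9%), against 15.7% of all tested genes. On the log2 scale, Control-3 lay below the mean of the other 2 controls by a median of -0.41 over the 38 genes, where the median over all tested genes was 0.0052. For CLs-3 against CLs-1 and CLs-2 the median was -0.22, where that of all genes was 0.00038.

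Among the role groups the difference was widest in the ATF4 outputs. Their median was -0.83 in Control-3 and -0.67 in CLs-3. Of these outputs, CHAC1 was at -1.70 and -0.99, ASNS at -0.99 and -0.93, PSAT1 at -0.96 and -0.67 and STC2 at -0.90 and -0.78. DDIT3, from the group of sensors and transcription factors, was at -1.30 and -1.04. In these 5 genes the third sample was low in both groups. Of the ATF4 outputs DDIT4 went the other way, at 0.51 in Control-3 and 0.74 in CLs-3, and SESN2 was at -0.03 and -0.0034. Among the chaperones HSPA5 was at -0.98 in Control-3 and -0.29 in CLs-3, so that its difference was mostly in the controls. The median over the chaperones was -0.47 in Control-3 and -0.16 in CLs-3. The 3 genes with a CARE in the window had a median of -0.99 and -0.93, the 7 genes with an ERSE -0.45 and -0.29, the 3 genes with an ERSE-II -0.54 and -0.16, and the 24 genes with none of the motifs -0.25 and -0.20. These groups are small and were not compared by a test. HERPUD1 was counted both with CARE and with ERSE-II. The genes with none of the motifs included DDIT3 and ATF4 outputs such as TRIB3, PSAT1 and PHGDH, so they are not genes outside the pathways.

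**Figure D3:**
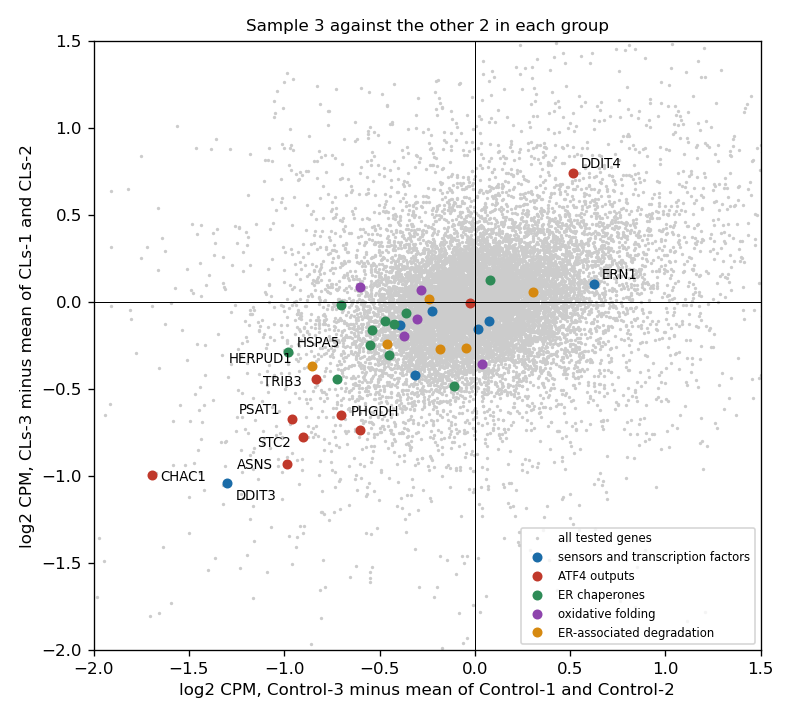
For each of the 38 genes (coloured by role) and all tested genes (grey), log2 CPM of Control-3 minus the mean of Control-1 and Control-2 (x axis) and of CLs-3 minus the mean of CLs-1 and CLs-2 (y axis). Some grey points lie outside the axes, CHAC1 and DDIT3 lie farthest to the lower left, and DDIT4 lies to the upper right.

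Once Control-3 was left out, the median log2 fold change over the 38 genes was -0.04, and HSPA5, HYOU1, MANF, PDIA4 and HERPUD1 had an unadjusted p-value under 0.05 (13.2%, against 6% of all tested genes in that fit), all with the CLs-treated group lower. HYOU1 was at 330.5, 301.6 and 217.3 CPM in the controls and 268.4, 247.5 and 230.9 CPM in the CLs-treated samples. PDIA4 was at 264.3, 225.9 and 161.1 CPM in the controls and 192.9, 179.2 and 197.8 CPM in the CLs-treated samples. In both, the CLs-treated samples lay between Control-3 and the other controls. The smallest adjusted p-value of edgeR's quasi-likelihood test in that fit was 0.714, so none was called. HYOU1 and PDIA4, and HERPUD1 in the plot of levels by sample, were picked after their values were seen. Without Control-1, ASNS, DDIT3, CHAC1 and TRIB3 had an unadjusted p-value under 0.05 (10.5%, against 6.05% of all tested genes). Without CLs-3 these were ASNS, DDIT3, ERO1L and TRIB3 (10.5%, against 5.57%), in both fits with the CLs-treated group higher. In the remaining leave-one-out fits the share was 0 to 2.63%, against 4.2% to 9.02%. With samples 1 and 2 of each group alone, 5 genes had an unadjusted p-value under 0.05 (ASNS, DDIT3, ERO1L, PDIA4 and TRIB3), which was 13.2% against 5.07% of all tested genes, again with none called.

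Other genes of the amino acid response were read from a wider list of 43, of which 40 were tested. In the fit of all 6 samples on condition alone, with the filter on low counts, none was called by edgeR, the median log2 fold change was 0.06, and 4 genes (10%) had an unadjusted p-value under 0.05, against 5.81% of all tested genes. GDF15, a secreted stress cytokine, was at 35.3, 55.9 and 56.6 CPM in the controls and 58.4, 108.5 and 105.9 CPM in the CLs-treated samples, the groups not overlapping. Its log2 fold change was 0.88 (standard error 0.25), with an adjusted p-value of 0.331 by edgeR's quasi-likelihood test. GDF15, and no other gene of the list, was called by DESeq2 at an adjusted p-value of 0.0352. In edgeR's quasi-likelihood test it was called at 0.00698 without the filter on low counts. Across the leave-one-out fits its log2 fold change was between 0.69 and 1.12, and it was not called in these.

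SLC7A11, the cystine and glutamate exchanger, was at 186.2, 204.1 and 70.9 CPM in the controls and 377.4, 203.5 and 234.4 CPM in the CLs-treated samples. Control-3 was far below and CLs-1 far above the rest, and the log2 fold change of 0.82 had a standard error of 0.34 and an adjusted p-value of 0.775 by edgeR's quasi-likelihood test. It became 0.48 without Control-3 and 0.51 without CLs-1. JDP2, a bZIP repressor, had a log2 fold change of -0.45, and SLC7A1, a carrier of arginine and lysine, -0.32, each with every CLs-treated sample below every control. Their adjusted p-values by edgeR's quasi-likelihood test were 0.564 and 0.775. The 13 tRNA synthetase and tRNA export genes had log2 fold changes from -0.10 to 0.18, and in 11 of them (84.6%) both Control-3 and CLs-3 were the lowest of their group. This held in 4 of the 9 tested genes of amino acid synthesis and one-carbon metabolism (44.4%), where CTH, ASS1 and ALDH18A1 were higher in Control-3 and CLs-3 than the mean of the other samples of their group, and in 5 of the 8 tested transporters (62.5%).

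Of 60 further genes of ER function and stress signalling, 59 were tested and none was called by edgeR or by DESeq2. Their median log2 fold change was 0.02, the interval lay within 2-fold in all 59, and 3 genes (5.08%) had an unadjusted p-value under 0.05. PPP1R15B (CReP), the standing partner of the eIF2α phosphatase, was at 119.1, 127.4 and 141.0 CPM in the controls and 102.5, 86.7 and 89.3 CPM in the CLs-treated samples. Every CLs-treated value was below every control, and the log2 fold change was -0.48 (standard error 0.13), with an adjusted p-value of 0.338 by edgeR's quasi-likelihood test. SEC61G, a subunit of the translocation channel, had a log2 fold change of 0.51, and ERLEC1, a lectin of glycoprotein degradation, of 0.38. Their adjusted p-values by edgeR's quasi-likelihood test were 0.732 and 0.675. The 6 genes of cell death and survival linked to DDIT3, such as BBC3, TNFRSF10B and the survival gene BCL2, had log2 fold changes from -0.05 to 0.39. The 10 genes of ER to Golgi transport stayed between -0.08 and 0.11.

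**Figure D4:**
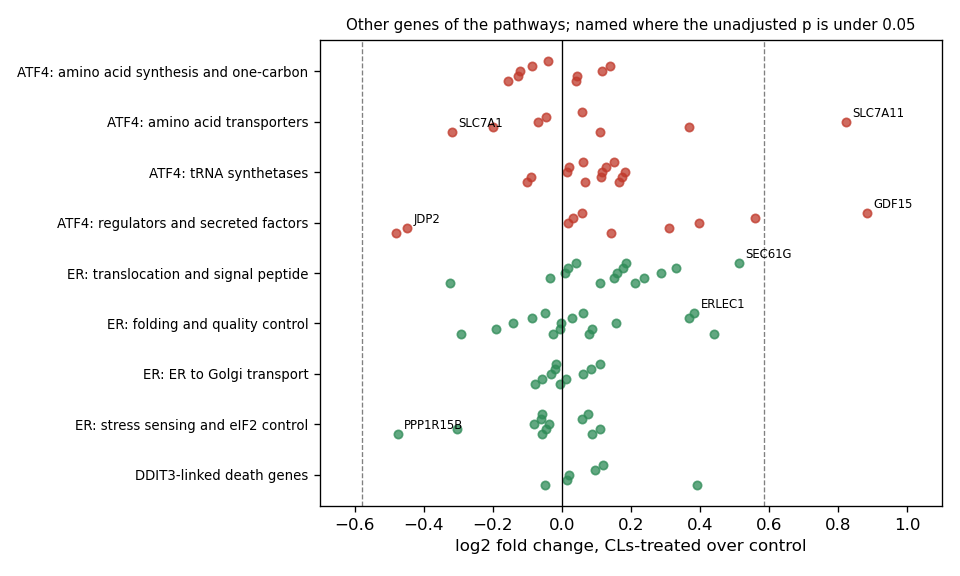
Log2 fold change, CLs-treated over control (x axis), of the 99 tested genes of the wider lists, 1 point per gene, by sublist (rows). Dashed lines mark folds of 1.5 and 0.67, names mark genes with an unadjusted p-value under 0.05, and GDF15 and SLC7A11 lie beyond 1.5-fold.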

How the data were processed

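The 38 genes, their role groups and the wider lists were chosen with earlier results of these data known. Total RNA was sequenced single-end on an Ion Proton, and per the labels the libraries were mixed before loading. MapSplice served for mapping, and the authors deposited whole-number read counts per gene symbol, without normalization. The submitters' processing notes name HTSeq 0.6.1 and hg19 (GRCh37). The strand setting and the handling of multi-mapping reads are not given in the sources used here. The labels give the dose in μM, and the paper's discussion gives the same figure in μg/ml.

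From these counts, genes were filtered with filterByExpr, scaled by TMM and tested on condition alone by the quasi-likelihood F test of edgeR 4.0.16 (R 4.3.3), with Benjamini-Hochberg adjustment over 15047 genes. The study used EBSeq. The standard error is the log2 fold change divided by the square root of F. The script was tested on simulated counts. Values per sample are given for HSPA5, DDIT3, ATF4, XBP1, TRIB3, ASNS and CHAC1, for members with an unadjusted p-value under 0.05 and for those whose groups do not overlap. In the wider lists, genes with an unadjusted p-value under 0.05 are named, at most 5 per list by smallest p-value.

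Alternatives were DESeq2 1.42.0, RLE factors, library totals, no filter, a stricter filter, a call without the fold criterion, a replicate block, and fits that each left out 1 sample. A fit with samples 1 and 2 of each group was added after seeing the data. Exons came from GENCODE 29 and promoters from RefSeq, both on GRCh38, and were joined by symbol. In GENCODE 29, 15 of the 38 genes share exon bases with a gene on the other strand. Protein sequences were not used here.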

Additional observations from a re-analysis of the deposited data

How the results depend on the processing

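No gene of the 38 was called under any of the alternatives. The number of genes whose groups do not overlap, 2 with all samples (5.26%, against 11.5% of all tested genes), was 3 to 9 when 1 sample was left out. It was 9 without Control-3 (23.7%, against 21.7% of all tested genes in that fit). In the other leave-one-out fits the share was 7.89% to 15.8%, against 16.7% to 27.3% of all tested genes, and it was below that of all tested genes in each of them. Left out in turn, the samples gave log2 fold changes of -0.33 to 0.11 for HSPA5, -0.15 to 0.18 for ATF4, -0.081 to 0.20 for XBP1 and -0.11 to 1.05 for CHAC1, which changed sign, and of 0.38 to 0.79 for TRIB3, 0.21 to 0.90 for DDIT3 and 0.28 to 0.80 for ASNS. With samples 1 and 2 of each group alone, ATF4 was at -0.058. The median over the 38 genes was -0.04 to 0.13 in the leave-one-out fits, with the value below 0 coming without Control-3. In the wider ATF4 list 1 gene, GDF15, was called by DESeq2, with the replicate block (adjusted p-value 0.0114 by edgeR's quasi-likelihood test) and when low counts were not filtered. Over all genes, 13 were called, 104 by DESeq2, 171 without the filter, 8 with library totals, 68 with the block, 20 with samples 1 and 2 alone and 3 to 7 with 1 sample left out. The cause was not tested.

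The groups share replicate numbers, but the study methods describe no block, so the main fit did not take the samples as pairs. The deviations of same-numbered samples correlated across genes at 0.11, 0.085 and 0.298, 1 of them under 0.1. Each sample correlated best with the sample of its own number in the other group, a hint from the data and not from the design. For Control-2 the margin was slight, at 0.085 with CLs-2 and 0.0819 with CLs-1. The deviations were taken from the group mean, so that of 1 sample bears on those of the others in its group. With the replicate block none of the 38 was called. The adjusted p-values of edgeR's quasi-likelihood test there were 0.0857 for TRIB3, 0.126 for ASNS and 0.23 for DDIT3. These 3 genes had an unadjusted p-value under 0.05 there (7.89% of the 38, against 7.85% of all tested genes). Their standard errors were 0.14, 0.13 and 0.17 with the block, against 0.22, 0.29 and 0.35 without it. These 3 genes were picked by their p-values in that fit, which favours small standard errors. Among the other genes, the standard error of HSPA5 was 0.17 with the block against 0.23, and that of SESN2 0.16 against 0.15. In TRIB3, ASNS and DDIT3 every CLs-treated sample lay above the control of its own number, while in CHAC1 CLs-1 lay below Control-1. Whether the samples are paired was not tested.

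At 3 samples a group, intervals past 2-fold in 4 genes limit what can be said of them. The split of reads with pseudogenes is uncertain: ATF4P3 reached 6.59% of the reads of ATF4 and PSAT1P3 3.67% of those of PSAT1, and HSP90B2P 5.47% of those of HSP90B1.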
